A study of Mus musculus with 6 samples.

Results

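Slpi, Wfdc2, Lcn2, Ltf and Pigr are 5 genes of secreted epithelial defence: 2 antiproteases of the WAP family, 2 iron-withholding antimicrobial proteins, and the receptor that carries polymeric antibody across epithelia. They were picked by gene symbol from a list of 5, out of 33679 genes in the table, with their values in the comparison of knockout with wild type kidney already known. That comparison is therefore described for them without a test. Expression was measured by mRNA sequencing of whole mouse kidney after unilateral ureteral obstruction, a surgical blockage of urine outflow that leads to fibrosis. The knockout group carried the genotype Cd248 KO and the other group was wild type, and mice of both groups were obstructed. Cd248 encodes endosialin, a surface glycoprotein of fibroblasts and pericytes; its row is 0 in the knockout library, against 9.03, 9.57 and 8.78 FPKM in the wild type libraries (limma, adjusted p = 0.00295). The labels name 3 knockout and 3 wild type samples, and values of 1 knockout library and 3 wild type libraries were analysed here; the labels' protocols speak of pooled RNA and give no age, sex or time after obstruction. Each knockout value is thus a single measurement, and errors come from the wild type libraries, whose spread may be technical.

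Slpi (secretory leukocyte peptidase inhibitor) blocks neutrophil serine proteases such as elastase and is itself antimicrobial. Wfdc2, known in humans as HE4, is a related small secreted protein built on the same disulfide-bonded WAP fold. Lcn2 (lipocalin 2, or NGAL) captures the siderophores with which bacteria gather iron and is a widely used marker of tubular injury. Ltf (lactotransferrin) binds iron directly and is found in milk, in mucosal secretions and in the secondary granules of neutrophils, which also hold Lcn2. Pigr binds dimeric IgA and pentameric IgM through the J chain at the basal side of an epithelial cell and is cleaved at the apical side to release secretory antibody.

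All 5 symbols matched 1 gene each. On mm10, with positions from the GENCODE annotation of the same build, Slpi (ENSMUSG00000017002) lies on chromosome 2 from 164354070 to 164389095 on the minus strand, and Wfdc2 (ENSMUSG00000017723) on the same chromosome from 164562413 to 164568510 on the plus strand, 173 kb away. Lcn2 (ENSMUSG00000026822) lies elsewhere on chromosome 2, from 32384633 to 32388252 on the minus strand. Ltf (ENSMUSG00000032496) lies on chromosome 9 from 111019271 to 111042767, and Pigr (ENSMUSG00000026417) on chromosome 1 from 130826684 to 130852249, both on the plus strand. No annotated gene overlapped Wfdc2, Lcn2, Ltf or Pigr, and the microRNA gene Mir7678 was the 1 model that overlapped Slpi.

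The promoter windows of Slpi, Lcn2 and Ltf are shown because these are the 3 genes whose knockout value lay outside the wild type range. Each window runs from 250 bases before to 50 bases after the RefSeq start (build GRCm38.p6), 5′ to 3′ on the gene's strand. Capitals mark matches to any of 7 short motifs, which were chosen after the windows had been seen. Slpi is at chr2:164356458-164356757, minus strand. This RefSeq start lies inside the longer GENCODE gene model of Slpi, whose 5′ end is at 164389095. Lcn2 is at chr2:32387690-32387989, minus strand. Ltf is at chr9:111019042-111019341, plus strand.
Slpi: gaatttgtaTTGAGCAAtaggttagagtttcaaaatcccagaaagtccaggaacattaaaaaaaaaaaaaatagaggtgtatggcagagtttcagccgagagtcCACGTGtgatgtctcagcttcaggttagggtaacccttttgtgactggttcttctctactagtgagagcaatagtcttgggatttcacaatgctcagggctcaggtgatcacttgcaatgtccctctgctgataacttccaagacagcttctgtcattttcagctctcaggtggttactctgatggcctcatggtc
Lcn2: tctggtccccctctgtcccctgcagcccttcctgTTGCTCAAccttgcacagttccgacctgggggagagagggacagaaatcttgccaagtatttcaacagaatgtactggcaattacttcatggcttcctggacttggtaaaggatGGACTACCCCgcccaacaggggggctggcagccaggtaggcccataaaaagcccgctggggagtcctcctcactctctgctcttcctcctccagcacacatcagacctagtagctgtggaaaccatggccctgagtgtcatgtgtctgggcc
Ltf: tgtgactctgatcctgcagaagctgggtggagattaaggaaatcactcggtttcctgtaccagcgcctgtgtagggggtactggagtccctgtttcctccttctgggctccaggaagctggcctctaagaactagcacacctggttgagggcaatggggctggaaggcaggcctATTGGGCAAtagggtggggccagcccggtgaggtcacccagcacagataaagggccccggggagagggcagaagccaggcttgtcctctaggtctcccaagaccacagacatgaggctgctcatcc

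The motifs, searched on both strands, were the TATA box spelled TATAAA, the CCAAT box, the E-box in the form CACGTG, the C/EBP motif taken as TTGCNNAA, the STAT motif taken as TTCNNNGAA, and short forms of the NF-kappa-B motif (GGG, then any 4 bases, then TCC) and of the IRF motif (GAAA repeated after any 2 bases). Each of the 3 printed windows held a TTGCNNAA match, at 241 bases before the start in Slpi, 216 in Lcn2 and 75 in Ltf; 10.8% of all 32851 windows hold one. In Ltf that match overlaps a CCAAT match, a motif found in 37.4% of windows. Slpi also held CACGTG at 146 bases before the start, and Pigr, whose window is not printed, held it at 71 bases before; 7.15% of windows do. Lcn2 also held the NF-kappa-B letters at 102 bases before the start, as did 19.2% of windows. The Pigr window also held the STAT letters, 39 bases after the start, as did 8.30% of windows. No member's window held TATAAA (13.6% of windows) or the IRF form (3.44%), and the Wfdc2 window held none of the 7 motifs. These are matches of letters and say nothing about binding.

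The 2 WAP antiproteases stood apart from each other. Slpi measured 60.22 FPKM in the knockout library, against 2.85, 4.26 and 3.21 FPKM in the wild type libraries (here and below in the order of replicates 1, 2 and 3). FPKM counts sequenced fragments after scaling for transcript length and for the number of fragments mapped. The knockout value lay above all wild type values and was 14.1 times the highest of them. It was 17.5 times the wild type mean of 3.44 ± 0.733 FPKM (SD, n = 3), which is also the fold in the authors' deposited table. On the scale used for all differences here, log2(FPKM + 1), the knockout library minus the wild type mean was 3.80 (SE 0.20). That scale understates the change of low genes; with a pseudocount of 0.1 FPKM the difference was 4.11. In rank of level, Slpi was number 555 of the 33679 genes in the knockout library, against numbers 11219, 9337 and 10475 in the wild type libraries.

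Wfdc2 measured 118.14 FPKM in the knockout library, against 133.19, 124.13 and 102.37 FPKM in the wild type libraries. The knockout value lay inside the wild type range, at 98.5% of the wild type mean of 120 ± 15.8 FPKM (SD, n = 3). The difference was -0.01 (SE 0.18), and its sign changed when wild type replicate 1 or 2 was left out; without replicate 3 the knockout value lay below the range. At a level 1.96 times that of Slpi in the knockout library, against 46.7, 29.1 and 31.9 times in the wild type libraries, Wfdc2 remained the more abundant of the pair in each of the 4 libraries.

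Both iron-withholding genes were lower in the knockout library than in every wild type library. Lcn2 measured 84.37 FPKM in the knockout library, against 178.23, 170.09 and 169.18 FPKM in the wild type libraries. The wild type values lay close together, with an SD of 4.98 FPKM or 2.89% of their mean (n = 3), and the knockout value was 48.9% of that mean. The log2 difference was -1.02 (SE 0.10). Ltf, a low gene, measured 1.0 FPKM in the knockout library, against 2.83, 2.40 and 2.93 FPKM in the wild type libraries. Its knockout value was 36.8% of the wild type mean of 2.72 ± 0.282 FPKM (SD, n = 3), a log2 difference of -0.89 (SE 0.13), or -1.35 with a pseudocount of 0.1 FPKM.

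Pigr measured 25.72 FPKM in the knockout library, against 29.38, 23.91 and 30.65 FPKM in the wild type libraries. The knockout value lay inside the wild type range, at 91.9% of the wild type mean of 28.0 ± 3.58 FPKM (SD, n = 3), and the log2 difference was -0.11 (SE 0.16). It lay below the range when the libraries were scaled to the same FPKM total or wild type replicate 2 was left out.

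**Figure D1:**
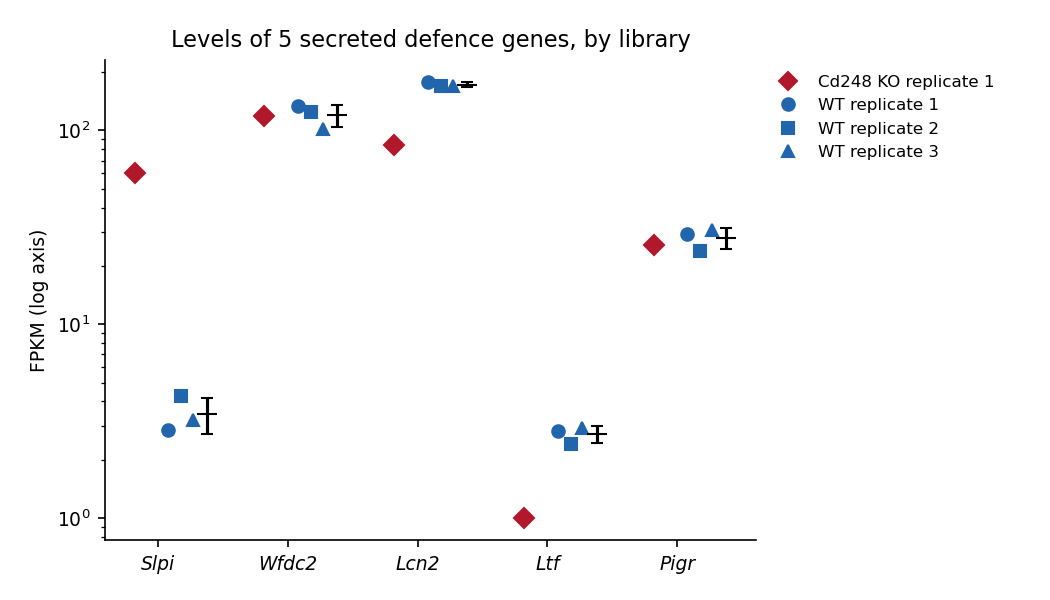
FPKM (log axis) of Slpi, Wfdc2, Lcn2, Ltf and Pigr in the Cd248 KO library (red diamonds) and the WT libraries (blue), with the WT mean and SD in black (n = 3). Slpi at 60.22 FPKM lies above its WT values of 2.85 to 4.26, Lcn2 and Ltf lie below theirs, and Wfdc2 and Pigr lie among theirs.

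The order of the 5 levels therefore differed. In the knockout library Wfdc2 was highest, followed by Lcn2, Slpi, Pigr and Ltf, whereas in each wild type library the order was Lcn2, Wfdc2, Pigr, Slpi and Ltf. Slpi and Ltf, the lowest pair in wild type kidney, were near each other there: Slpi was 60.2 times Ltf in the knockout library, against 1.01, 1.77 and 1.10 times in the wild type libraries. Lcn2 was 1.40 times Slpi in the knockout library, against 62.5, 39.9 and 52.7 times in the wild type libraries. The ratio of Lcn2 to Ltf moved less, at 84.4 in the knockout library, against 63.0, 70.9 and 57.7 in the wild type libraries. The 5 genes together made up 289 FPKM in the knockout library, against 346, 325 and 308 FPKM in the wild type libraries.

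Over the 16871 genes whose mean reached 0.5 FPKM, the knockout library lay above every wild type library for 28.0%, below every one for 31.2% and inside their range for 40.8%. All 5 genes described here passed that filter, and 1 lay above, 2 below and 2 inside. In limma's moderated linear model fitted to all 16871 genes, which takes the spread of the wild type libraries for the knockout library too, 0.640% of genes passed as higher and 0.0830% as lower, 0.723% in all, at an adjusted p under 0.05 (Benjamini-Hochberg). Without the immunoglobulin genes, 0.0599% passed as higher. Of the 5 members, 1 (Slpi) passed, as higher. The number of members that passed in either direction was 0 without the filter on low values and 0 without wild type replicate 1 or 3. It was 2 with quantile normalization or no mean-variance trend. Since the members were chosen on this contrast, nothing is read from these counts. The authors' deposited table marks 3 of the 5, Slpi, Lcn2 and Ltf, as significant, against 0.781% of all its genes. The sources used here do not name the test behind that mark. It rests on the same contrast, so nothing is read from this count either. Slpi ranked 2nd of 16695 tested genes outside the immunoglobulin loci by size of positive difference, and a difference of at least 1 was reached by 1.51% of all tested genes. Lcn2 and Ltf ranked 134th and 177th lowest of all 16871, and a difference of -1 or lower, which Lcn2 had, was seen in 0.830%.

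**Figure D2:**
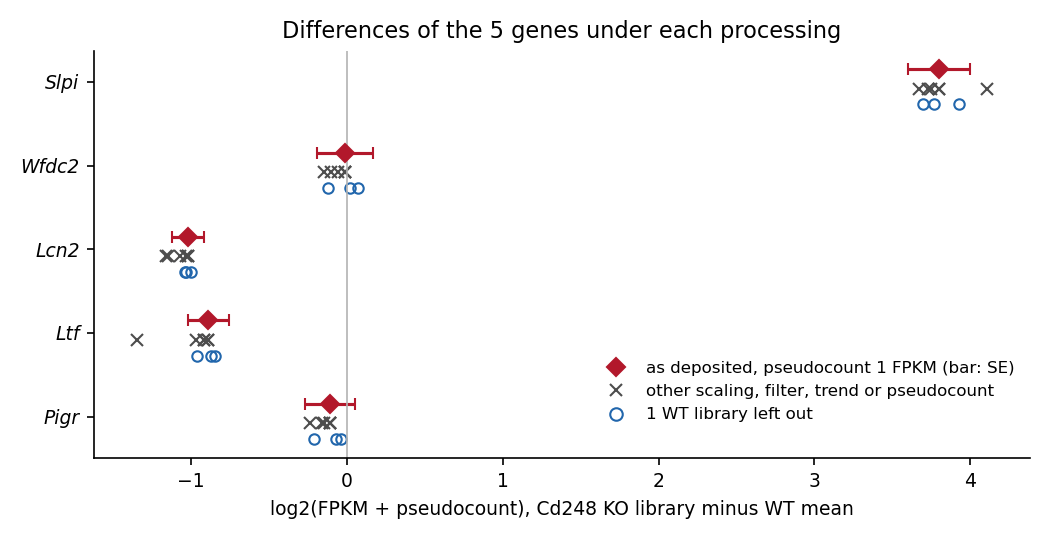
Difference of log2(FPKM + pseudocount), Cd248 KO library minus WT mean, for each gene. Red diamonds with SE bars are the values as reported (Slpi 3.80, Lcn2 -1.02), crosses other scalings, filters or pseudocounts, and open circles fits without 1 WT library; Slpi stays between 3.67 and 4.11 and Lcn2 between -1.16 and -1.0, while Wfdc2 crosses 0.

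The genes with the most similar profile over the 4 libraries, by Euclidean distance of the log2 values from each gene's wild type mean, were of different kinds for each member. For Slpi the nearest were the immunoglobulin genes Ighg1 (distance 0.213), Ighv14-2 (0.280) and Igkv6-13 (0.314); variable segments resemble each other and may share reads, so their single values are uncertain. Ighg1, an IgG heavy chain constant region, measured 20.93 FPKM in the knockout library, against 0.31, 0.79 and 0.25 FPKM in the wild type libraries. For Lcn2 the nearest were Zfp125 (0.021), Gm28119 (0.075) and Col5a2, a fibrillar collagen chain (0.098), which measured 14.42 FPKM in the knockout library, against 29.45, 30.89 and 29.11 FPKM in the wild type libraries. For Ltf they were Twist1, a mesenchymal transcription factor (0.118), Fam177a (0.137) and Gm17501 (0.149). The flat profiles of Wfdc2 and Pigr had many near neighbours, with 178 and 60 genes within a distance of 0.1, against 3 for Lcn2 and none for Slpi or Ltf. Closest to Wfdc2 were Pold2 (0.019), Tspan8 (0.023) and Yju2 (0.024), and near to Pigr were Gm21188 (0.041) and Gm17080 (0.047). With 4 libraries, such likeness rests mainly on the difference between the knockout library and the rest.

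Genes near the members on the chromosome showed small differences. Within 250 kb of Slpi, 7 other genes were tested, 0 passed limma's test, 0 had an unadjusted p under 0.05, and their log2 differences ran from -0.18 to 0.19. They included the WAP genes Wfdc15b, at 7.74 FPKM in the knockout library and 5.64, 12.60 and 8.87 FPKM in the wild type libraries, and Wfdc16, at 1.11 FPKM and 0.50, 0.87 and 1.27 FPKM in the same order of libraries. Around Lcn2, Wfdc2, Ltf and Pigr, 19, 12, 8 and 6 genes were tested, and none passed; their differences ran from -0.42 to 0.21, and 1 gene near Lcn2 alone had an unadjusted p under 0.05. Gene Ontology terms in the deposited table annotate all 5 genes to the extracellular region, and Slpi, Wfdc2 and Ltf to the antibacterial humoral response. Of the 17 other tested genes with that last term outside the immunoglobulin loci, 1 rose, Jchain, and none fell.

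Among relatives of the members, no gene passed. The WAP family had 4 other tested genes, with a median difference of 0.02 (-0.13 and -0.12 without wild type replicates 1 and 3), against -0.01 over all tested genes; 0 of 4 passed limma's test and 0 had an unadjusted p under 0.05. Wfdc17 was the 1 of 4 above the wild type range, at 23.77 FPKM in the knockout library, against 21.66, 16.62 and 23.44 FPKM in the wild type libraries (adjusted p = 0.750). The 6 other lipocalins had a median of 0.33 (0.07 without the filter on low values), 4 of 6 above the wild type range, 0 passing and 2 with an unadjusted p under 0.05. The highest was Ambp, precursor of alpha-1-microglobulin and of the protease inhibitor bikunin, at 2.06 FPKM in the knockout library, against 1.0, 0.82 and 0.68 FPKM in the wild type libraries (0.74, SE 0.15, adjusted p = 0.274).

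The other genes of iron handling lay on both sides of the wild type range. Of 16 tested, 0 passed and 0 had an unadjusted p under 0.05, 6 lay above and 3 below the wild type range, and the median was 0.07, or -0.06 when libraries were scaled to equal totals. Slc22a17, a reported lipocalin 2 receptor, measured 8.53 FPKM in the knockout library and 7.53 ± 0.246 FPKM in wild type (SD, n = 3; adjusted p = 0.591). Lrp2, the megalin receptor by which proximal tubule retrieves filtered Lcn2, measured 24.15 FPKM in the knockout library and 9.91, 16.42 and 24.64 FPKM in the wild type libraries (adjusted p = 0.720). Heph, a copper-dependent iron oxidase, had the lowest difference, at 3.35 FPKM in the knockout library and 4.43, 6.85 and 5.35 FPKM in the wild type libraries (-0.57, SE 0.23, adjusted p = 0.488).

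Pigr itself lay inside the wild type range while the genes of its cargo were higher. Of 14 other genes of polymeric antibody transport, 3 rose by limma's test, all antibody components: Igha, the IgA heavy chain (5.44, SE 0.52, adjusted p = 0.0457), Jchain, the joining chain that Pigr recognizes (5.24, SE 0.37, adjusted p = 0.0195), and Ighm, the IgM heavy chain (2.30, SE 0.20, adjusted p = 0.0332). Igha measured 1042.38 FPKM in the knockout library, against 35.11, 25.12 and 13.72 FPKM in the wild type libraries. Jchain measured 309.80 FPKM in the knockout library, against 10.72, 6.60 and 5.29 FPKM in the wild type libraries. For each of the 3 genes the knockout value lay above all wild type values. Ighm measured 95.71 FPKM in the knockout library, against 19.77, 21.18 and 15.31 FPKM in the wild type libraries. The calls of Igha and Ighm were lost without any 1 wild type library (adjusted p from 0.0792 to 0.196 and from 0.0662 to 0.234), and that of Jchain without wild type replicate 2 or 3 (0.0987 and 0.119) but not without replicate 1 (0.0354). With a pseudocount of 0.1 FPKM or without the filter on low values none of the 3 passed. These antibody genes were known to differ when the list was drawn up. Set against Pigr within a library, Jchain was 12.0 times Pigr in the knockout library, against 0.365, 0.276 and 0.173 times in the wild type libraries, and Igha 40.5 times, against 1.20, 1.05 and 0.448 times.

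The other 11 genes of this list, receptors and transport machinery, did not pass; over all 14, 4 lay above and 4 below the wild type range. Fcamr, a receptor for IgA and IgM related to Pigr, measured 1.22 FPKM in the knockout library and 1.34 ± 0.191 FPKM in wild type (SD, n = 3; adjusted p = 0.880). Fcgrt, the neonatal Fc receptor, measured 54.32 FPKM in the knockout library and 54.8 ± 2.89 FPKM in wild type (SD, n = 3; adjusted p = 0.978). Rab25, a recycling GTPase of epithelia, measured 5.07 FPKM in the knockout library, against 6.38, 8.82 and 6.38 FPKM in the wild type libraries (-0.42, SE 0.20, adjusted p = 0.555). Rab17, another epithelial trafficking GTPase, measured 8.66 FPKM in the knockout library, against 5.94, 6.09 and 7.16 FPKM in the wild type libraries (0.39, SE 0.13, adjusted p = 0.435).

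**Figure D3:**
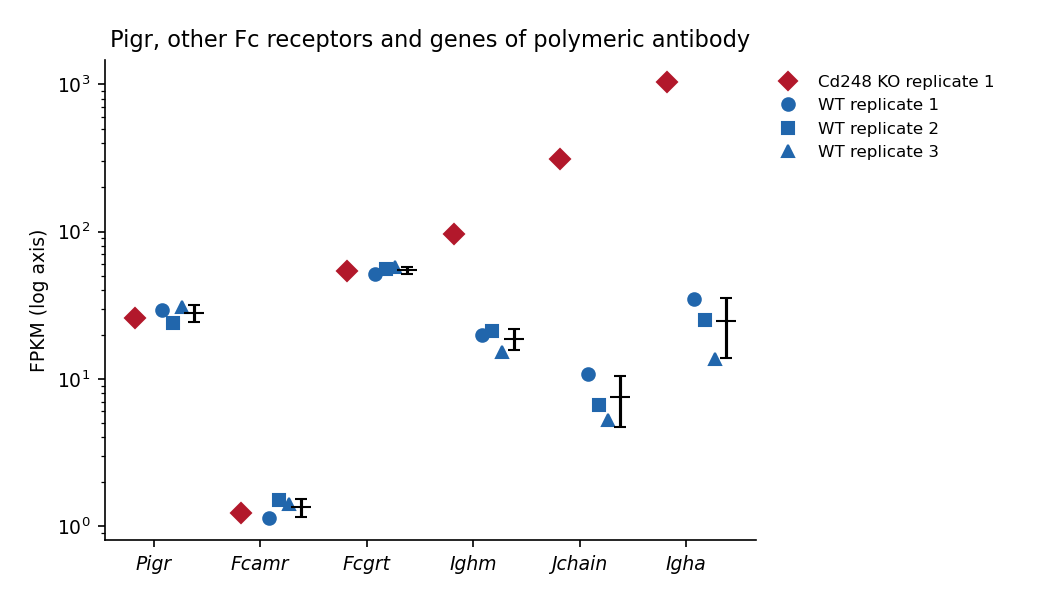
FPKM (log axis) of Pigr, the Fc receptors Fcamr and Fcgrt, and the antibody genes Ighm, Jchain and Igha in the Cd248 KO library (red) and the WT libraries (blue), with WT mean and SD in black (n = 3). Pigr, Fcamr and Fcgrt lie among their WT values, and Ighm at 95.71 FPKM, Jchain and Igha lie above theirs.

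Of the other secreted antimicrobial proteins, more lay below the wild type range than above it. Of 19 tested, 10 (52.6%, against 31.2% of all tested genes) were below and 2 above, with a median of -0.32 (-0.19 without wild type replicate 1 and -0.11 without the filter on low values); 0 passed limma's test and 2 had an unadjusted p under 0.05. Rnase4, a secreted ribonuclease, measured 27.35 FPKM in the knockout library, against 43.00, 39.05 and 38.49 FPKM in the wild type libraries (-0.54, SE 0.10, adjusted p = 0.256). Muc1, an epithelial mucin, measured 25.61 FPKM in the knockout library, against 40.31, 38.20 and 30.40 FPKM in the wild type libraries (-0.48, SE 0.18, adjusted p = 0.477). Rnase6, an antibacterial ribonuclease of kidney and macrophages, measured 4.37 FPKM in the knockout library, against 2.88, 2.48 and 3.19 FPKM in the wild type libraries (0.48, SE 0.14, adjusted p = 0.393). Defb1, the constitutive beta-defensin of distal tubule, and Umod (uromodulin) lay inside their wild type ranges.

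Protease inhibitors other than Slpi and Wfdc2 showed no common direction. Of 21 tested, 8 were above and 4 below the wild type range, the median was 0.05 (-0.04 without wild type replicate 1), 0 passed limma's test and 3 had an unadjusted p under 0.05. Spink1, a secreted trypsin inhibitor, measured 135.76 FPKM in the knockout library, against 62.39, 88.91 and 114.08 FPKM in the wild type libraries (adjusted p = 0.585). Serpinb6b, an intracellular serpin, measured 21.01 FPKM in the knockout library, against 37.21, 29.46 and 29.87 FPKM in the wild type libraries (adjusted p = 0.374). Of a list of serine proteases, 6 were tested and 0 passed limma's test (0 with an unadjusted p under 0.05). Elane, neutrophil elastase and the classic target of Slpi, was too low to be tested. It measured 0.11 FPKM in the knockout library, and all wild type libraries list it at 0.

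A further list held 33 tested regulators of epithelial defence genes, from the NF-kappa-B, STAT3, C/EBP and IL-17 pathways and their cytokines. Of these, 17 (51.5%, against 31.2% of all tested genes) lay below and 6 above the wild type range. The list includes inhibitors of these pathways: Socs3 and Nfkbia lay below the range and Tnfaip3 above it. The median was -0.16 (-0.09 without wild type replicate 1), 0 passed limma's test and 6 had an unadjusted p under 0.05. Cebpd, an acute-phase transcription factor, measured 6.80 FPKM in the knockout library, against 14.87, 13.04 and 11.58 FPKM in the wild type libraries (-0.85, SE 0.15, adjusted p = 0.239). Its relative Cebpb measured 20.87 FPKM in the knockout library, against 39.34, 32.71 and 29.10 FPKM in the wild type libraries (-0.66, SE 0.18, adjusted p = 0.376). Il1b, the inflammatory cytokine interleukin-1 beta, measured 6.51 FPKM in the knockout library, against 20.68, 13.13 and 9.64 FPKM in the wild type libraries (-0.98, SE 0.41, adjusted p = 0.506). Il18, a cytokine of epithelia and macrophages, measured 3.37 FPKM in the knockout library, against 2.56, 2.24 and 2.42 FPKM in the wild type libraries (0.36, SE 0.11, adjusted p = 0.412).

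**Figure D4:**
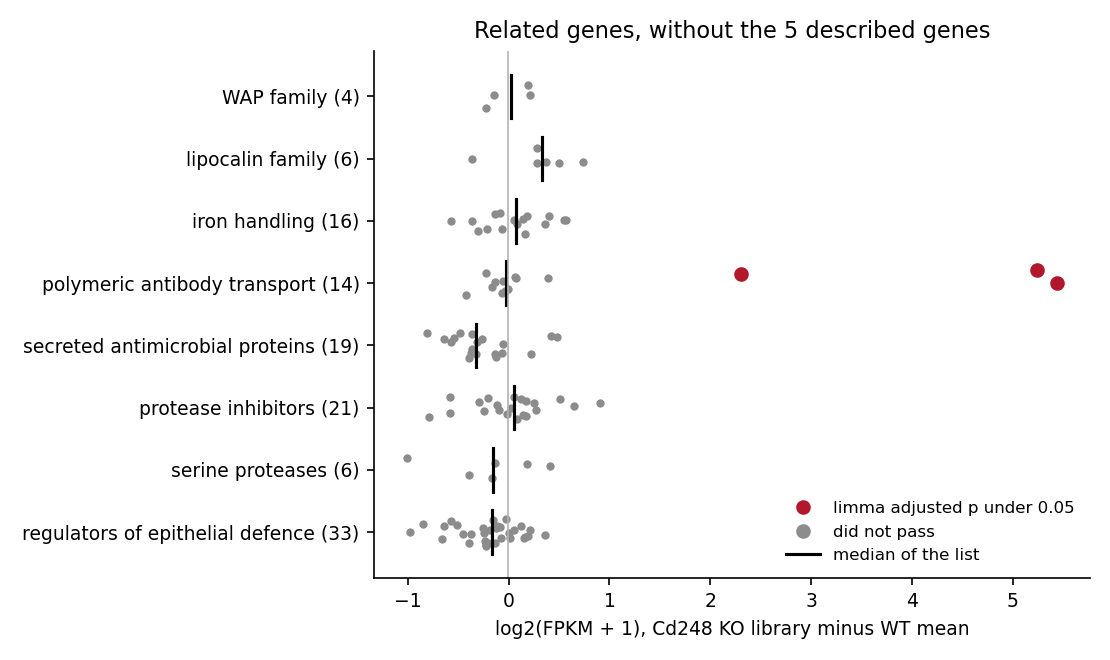
Difference of log2(FPKM + 1), Cd248 KO library minus WT mean, for each tested gene of 8 related lists without the 5 members (number tested in brackets; black lines are list medians). The 3 red points are Ighm, Jchain and Igha at 2.30, 5.24 and 5.44, and the other points, all grey, did not pass limma's test.

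Whole kidney RNA mixes many cell types, so fewer cells of a type and less RNA per cell cannot be told apart. Neutrophils carry Ltf and Lcn2 in their granules. The summed FPKM of 18 neutrophil markers, the members left out, was 38.7 in the knockout library, against 106, 22.5 and 59.7 in the wild type libraries. The knockout library lay inside this wide wild type range. The part of neutrophil content in the lower Ltf and Lcn2 was not tested. Of 10 neutrophil markers tested, 1 was above and 1 below the wild type range, 0 passed and 1 had an unadjusted p under 0.05. Granule genes were near 0: Ngp measured 1.13 FPKM in the knockout library and between 0 and 0.04 FPKM in wild type, and Camp measured 0.53 FPKM in the knockout library and between 0 and 0.22 FPKM in wild type.

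Urothelial markers were lower in the knockout library and in 1 wild type library. Their sum over 12 markers was 30.7 FPKM in the knockout library, against 124, 139 and 39.6 FPKM in the wild type libraries; 9 of 10 tested were below the wild type range, 0 passed, 1 had an unadjusted p under 0.05, and Upk2 and Krt13 were listed at 0 in the knockout library. Krt20, inside its wild type range, made up 19.28 FPKM of the knockout sum and 14.89 FPKM of the sum in wild type replicate 3. Krt15 measured 0.74 FPKM in the knockout library, against 18.92, 26.27 and 4.28 FPKM in the wild type libraries. Upk1b measured 0.19 FPKM, against 10.99, 9.12 and 1.57 FPKM. In wild type replicate 3, Slpi, Lcn2 and Ltf measured 3.21, 169.18 and 2.93 FPKM. A link of Slpi, Lcn2 and Ltf to urothelial content was not tested. For the other epithelial sums, collecting duct (168 FPKM, against 135, 168 and 140), intercalated cell (80.9, against 83.3, 77.6 and 73.7), loop and distal tubule (561, against 400, 728 and 648), proximal tubule (4310, against 1330, 3420 and 5200) and injured tubule (8060, against 8500, 7860 and 6880), the knockout library lay inside the wild type range. The injured tubule sum is mostly Spp1 (osteopontin), which measured 7227.41 FPKM in the knockout library and 7504.76, 6884.30 and 6211.58 FPKM in the wild type libraries. Of the 14 injured tubule markers, 5 lay below and 2 above the wild type range, with a median of -0.27 (-0.13 without wild type replicate 1). Below it was Krt19, an epithelial keratin, at 15.87 FPKM in the knockout library, against 60.49, 63.82 and 31.19 FPKM in the wild type libraries (adjusted p = 0.382). Above it was Havcr1 (KIM-1), a proximal tubule injury marker, at 260.54 FPKM in the knockout library, against 188.59, 206.30 and 85.64 FPKM in the wild type libraries (adjusted p = 0.665). In these 5 epithelial lists no gene passed limma's test, and at most 2 in a list had an unadjusted p under 0.05.

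Macrophage markers, a lineage that can also make Slpi, summed to 1310 FPKM in the knockout library, against 1360, 923 and 1410 FPKM in the wild type libraries. Of 15 tested, 11 lay inside the wild type range, and the median difference was -0.02. Ly6c2, a monocyte surface marker, was the 1 of 15 that was higher by limma's test, against 0.640% of all tested genes. Plasma cell markers summed to 485 FPKM in the knockout library, against 141, 127 and 113 FPKM in the wild type libraries. Jchain made up 309.80 FPKM of the knockout sum, against 10.72, 6.60 and 5.29 FPKM of the wild type sums. By limma's test 6 of 11 tested genes were higher, against 0.640% of all tested genes. The knockout value lay above the wild type range for 10 of the 11 and below it for 1, Sdc1. Mesenchymal markers summed to 388 FPKM in the knockout library, against 843, 1000 and 805 FPKM in the wild type libraries. The knockout value lay below the wild type range for 11 of the 12, against 31.2% of all tested genes. Cd248, Acta2 and Col1a1, 3 of the 12, were lower by limma's test, against 0.0830% of all tested genes. Of these calls, those of Cd248 and of Mzb1, a plasma cell chaperone, held without any 1 wild type library (adjusted p from 0.0254 to 0.0393 and from 0.0254 to 0.0423). Each of the others was lost without at least 1 wild type library, with adjusted p of 0.144 to 0.155 for Ly6c2, 0.108 to 0.119 for Acta2 and 0.142 to 0.309 for Col1a1 whichever was left out. The part of these cell type markers in the differences of Slpi, Lcn2 and Ltf was not tested.

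**Figure D5:**
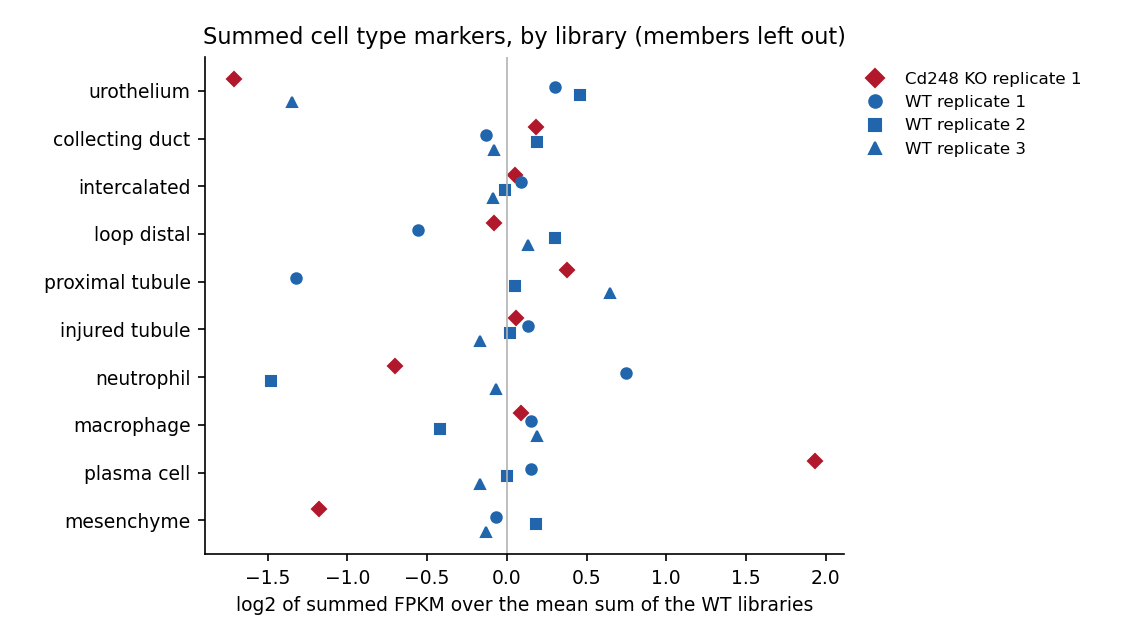
Summed FPKM of cell type markers in each library, as log2 of the sum over the mean sum of the WT libraries; red diamonds are the Cd248 KO library and blue symbols the WT libraries. The KO library lies outside the WT range for urothelium, plasma cell and mesenchyme markers. For urothelium the nearest is WT replicate 3, at -1.35 against -1.71 in the KO library.

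Library-wide measures touch these values as follows. FPKM summed to 304000 in the knockout library, against 267000 to 285000 in the wild type libraries, and immunoglobulin genes took 5.98% of that sum in the knockout library, against 0.113% to 0.202% in the wild type libraries. Scaling to the same total shifted the median difference of all tested genes to -0.11 and gave differences of 3.67 for Slpi, -1.16 for Lcn2, -0.97 for Ltf, -0.24 for Pigr and -0.15 for Wfdc2. Read depth is unknown, since low FPKM values showed no steps of whole reads.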

How the data were processed

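The labels' protocols give mRNA purified from Trizol-extracted kidney RNA with oligo(dT) beads and sequenced on a NovaSeq instrument. The submitters' processing notes name cutadapt 1.9, FastQC, HISAT2 2.0.4 and build mm10, without roles; the program behind the expression values is not named in these sources. The deposited table holds FPKM per gene, rounded, per the file headers. It also holds the authors' fold change as a ratio, its log2, and the authors' p-values and q-values; of these only the authors' fold and significance mark were used. Values of 4 of the 6 labelled samples were used; knockout replicates 2 and 3 were not analysed here.

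Log2(FPKM + 1) was fitted with limma 3.58.1 (R 4.3.3; two-sided, mean-variance trend, 16871 genes whose mean reached 0.5 FPKM, Benjamini-Hochberg over all, threshold 0.05; 2 residual degrees of freedom). The fit was also run on simulated data. These gave the knockout column the same spread as the wild type columns, so they could not test that assumption. Members and lists were chosen with earlier results of these data known. Genes named beyond the 5 members and Cd248 were taken, per list, from those called, the 3 highest and 3 lowest outside the wild type range whose higher group reached 1 FPKM, and the 3 nearest profiles (1 gene is not reported here); Elane, Ngp, Camp, Slc22a17, Lrp2, Fcamr, Fcgrt, Rab17, Spp1, Defb1, Umod, Upk2, Krt13, Wfdc15b and Wfdc16 were named after their values were seen. Positions came from GENCODE M21 and promoter windows from RefSeq (5 of 5 members matched in each). Alternatives were another pseudocount, no filter, 3 scalings, no trend, and leaving out each wild type library. The design had assumed 3 knockout libraries and was run with 1.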

Additional observations from a re-analysis of the deposited data

How the results depend on the processing

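Slpi stayed above, and Lcn2 and Ltf below, every wild type library under all 9 alternatives. With a pseudocount of 0.1 FPKM the difference was 4.11 for Slpi and -1.35 for Ltf; for Lcn2 it was -1.16 with the same FPKM total, -1.15 with quantile normalization and -1.07 with immunoglobulin genes left out and the rest scaled to the same total, each a larger move than the wild type SD of 0.04. Without 1 wild type library the differences ran from 3.70 to 3.93 for Slpi, -0.12 to 0.07 for Wfdc2, -1.04 to -1.0 for Lcn2, -0.96 to -0.85 for Ltf and -0.21 to -0.04 for Pigr.

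Counts of calls moved more. Of all genes, 108 were called higher and 14 lower; the counts were 33 and 6 with a pseudocount of 0.1 FPKM, 201 and 4 with no filter, 5 and 1 with immunoglobulin genes left out and the rest scaled to the same total, and 24 lower with the same FPKM total. Without 1 wild type library, 41 to 72 were higher and 1 to 4 lower. The 3 calls among 118 tested genes of the related lists became 0 with a pseudocount of 0.1 FPKM or no filter (limma; 17 and 24 genes at an unadjusted p under 0.05), 1 with immunoglobulin genes left out and the rest rescaled, where Igha and Ighm are not in the test, and 0 to 1 without 1 wild type library (15 to 22 at an unadjusted p under 0.05). Not counting immunoglobulin genes in the fit as reported leaves 10 higher. Otherwise the cause was not tested. No paired analysis was possible because knockout and wild type libraries with values share only replicate number 1. With 1 knockout library, leaving it out gives no comparison and was not run. Unknown depth limits what can be said of Ltf and other low genes.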
